A study of Rattus norvegicus with 4 samples.

Results

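The 5′-half of tRNA-Gly-GCC is the front part of a transfer RNA (tRNA) that carries glycine, here its first 36 nt, and it was followed in small RNA libraries of rat vascular smooth muscle cells. Its members were sequenced tags (distinct read sequences) of at least 18 nt that lay wholly within this 5′-half, in the form of the reference gene or in a form with the single substitution T5G. Positions are counted from 1 at the first base of the gene, and the forms are called the T form and the G form. There were 243 such tags among 2397853 distinct tags in all, of which 75 matched the G form alone, 66 the T form alone and 102 both, because they start at nt 6 or later. The molecule was selected on read counts of these same libraries. The G form was chosen by its reads, as the substitution that began the most of them (71723 reads over the 4 libraries, against 9254 for the next), so its lead over other substitutions is part of the choice and not a result.

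The cells came from the aorta of Sprague-Dawley rats, were all held for 48 h without serum, and were either not stimulated (control) or stimulated with 100 nM angiotensin II (Ang II) for 1 h, 3 h or 24 h. Ang II is a peptide that contracts these cells and drives their growth. Each group was 1 library, so no value below has a replicate beside it, and all 3 comparisons share the same control library. The control carries no time of its own, so an effect of the hormone and one of longer culture cannot be told apart. In these bulk samples, fewer cells that make a fragment and less of it per cell cannot be told apart either.

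tRNAs fold into a cloverleaf whose anticodon sits in a loop of single-stranded RNA, and nucleases such as angiogenin can cut in or beside that loop and leave a 5′-half and a 3′ part. Fragments of glycine tRNAs are among the most often found tRNA pieces in cells, blood and sperm, and tRNA fragments have been tied to stress and to control of translation. These statements are background and not results of these libraries.

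The sequence below is the RefSeq gene Trnag-gcc2 (build GRCr8, chr10:54322802-54322872, minus strand), with its anticodon in capitals. It is shown because every length and end given here is read against it. The gene is 71 nt long, its anticodon stem begins at nt 26 and ends at nt 30, the loop runs from nt 31 to nt 37, and the anticodon is nt 33 to nt 35. It lies 98 bases before the start of Hes7, which is on the other strand. It is 1 of 22 genes named Trnag-gcc in that table, and reads cannot be assigned to 1 of them.
Trnag-gcc2: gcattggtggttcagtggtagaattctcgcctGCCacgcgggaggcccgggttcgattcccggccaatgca

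The next sequences are both forms of the 5′-half and the 3 tags on which most of the values turn, with the base at nt 5 in capitals. The tags are the most read one of the G form, the G form tag that ends inside the anticodon, and the most read one of the T form.
T form, nt 1 to 36: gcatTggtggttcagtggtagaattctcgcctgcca
G form, nt 1 to 36: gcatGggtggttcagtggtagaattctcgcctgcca
G form, 30 nt: gcatGggtggttcagtggtagaattctcgc
G form, 34 nt: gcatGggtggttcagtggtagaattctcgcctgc
T form, 23 nt: gcatTggtggttcagtggtagaa

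The libraries held 14395539 reads that name a sequence in control, 13119417 after 1 h, 14370167 after 3 h and 14534892 after 24 h, and levels are reads per 1000000 of these (RPM). Reads that begin like a mature rat miRNA made up 68.4%, 72.8%, 74.4% and 71.9% of them in the same order. Of the marker miRNAs, those of smooth muscle were abundant, with 3572929 to 4454161 reads of miR-143-3p and 31760 to 35806 of miR-145-5p per library. The markers of other cell types were lower, with 1326 to 1650 reads of endothelial miR-126a-3p, 1401 to 1718 of striated muscle miR-1-3p, 46 to 76 of epithelial miR-200c-3p, and at most 11 of miR-133a-3p, 7 of blood-cell miR-142-3p, 6 of red-cell miR-451-5p and 3 of liver miR-122-5p. In this order of libraries miR-126a-3p stood at 111, 101, 115 and 96.3 RPM and miR-1-3p at 119, 107, 97.5 and 96.7 RPM. Their part in the levels below was not tested.

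The 5′-half was most abundant after 24 h of Ang II. It had 14661 reads (1018 RPM) in control, 11592 (884 RPM) after 1 h, 10716 (746 RPM) after 3 h and 41288 (2841 RPM) after 24 h. The 24 h library was the high one, and the 3 h library the lowest. The 24 h level was 2.79 times that of control, with an exact 95% interval of 2.74 to 2.84. The 1 h level was 0.868 times (0.847 to 0.889) and the 3 h level 0.732 times (0.714 to 0.751) that of control. Intervals here and below cover the error of counting alone, as copies made by PCR are not separate molecules, and say nothing of the spread between cultures. The difference at 1 h is of the size that scaling moves, because its log2 ratio of −0.20 became 0.01 with TMM factors. Against 3 h, the 24 h level was 3.81 times as high (3.73 to 3.89).

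Both forms were at their highest after 24 h, at different levels. Tags of the G form alone stood at 792 RPM in control, 675 after 1 h, 562 after 3 h and 2403 after 24 h, which is 3.03 times control at 24 h (2.97 to 3.10). Tags of the T form alone stood at 80.6, 82.5, 79.5 and 292 RPM, which is 3.62 times control at 24 h (3.39 to 3.87). By exact matches, the T form made up 9.23% of the reads that belong to 1 form in control, 10.9% after 1 h, 12.4% after 3 h and 10.8% after 24 h. In reads from nt 1 with up to 5 mismatches beside nt 5, it made up 39.95%, 41.9%, 38.0% and 45.0%, so both its share and the order of the libraries depend on the matching. At 1 h and 3 h the intervals of the T form's ratio to control held 1 (1.02, 0.942 to 1.11, and 0.986, 0.908 to 1.07), while those of the G form did not (0.852, 0.828 to 0.876, and 0.709, 0.689 to 0.730). That contrast is lost when mismatches are allowed, as given further on.

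Tags that start inside the tRNA, at nt 6 or later, and so fit both forms, did not share the 24 h level. They stood at 146 RPM in control, 126 after 1 h, 104 after 3 h and 146 after 24 h, and the 24 h ratio was 1.00 (0.941 to 1.06). Of the 1822 RPM by which the 24 h library exceeded control, 88.4% lay in exact tags of the G form and 11.6% in exact tags of the T form. Exact matching leaves out most reads with T at nt 5. With up to 5 mismatches beside nt 5, in reads from nt 1, the excess was 2122 RPM for the G form and 1926 RPM for the T form, or 52.4% and 47.6% of both. This split goes by the base read at nt 5, and whether all reads with T there came from a T form molecule was not tested.

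**Figure D1:**
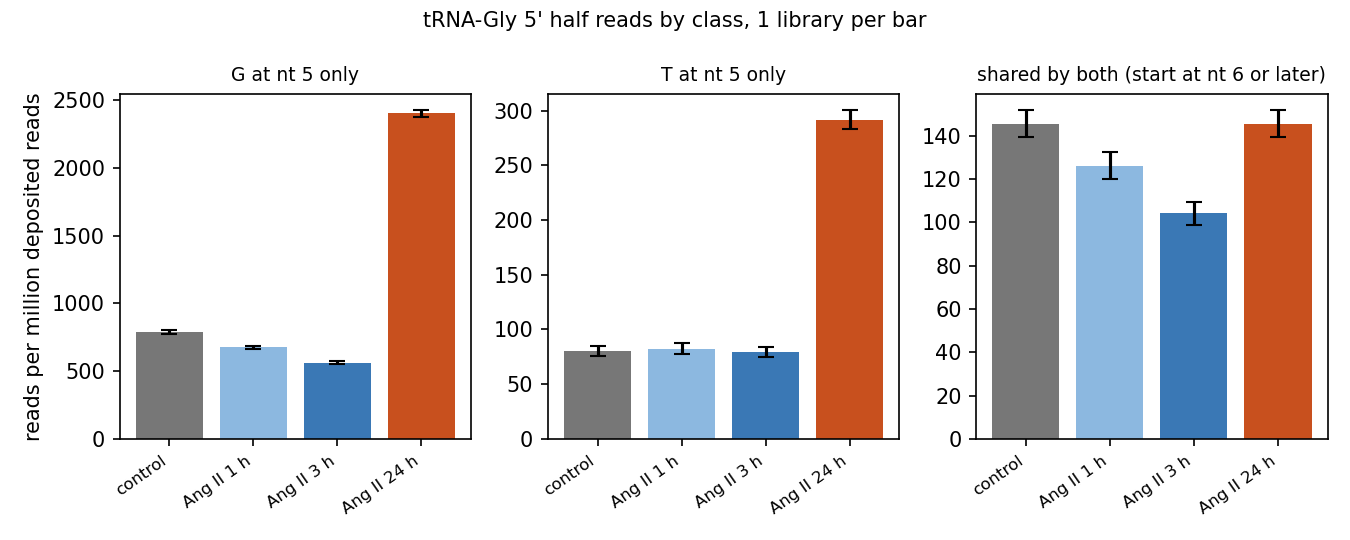
RPM of tags that match only the G form, only the T form, or both, with 1 bar per library and exact 95% Poisson intervals. The 24 h bar is the highest for both forms (2403 and 292 RPM), and for the shared tags it is level with control (146 RPM each).

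The 24 h excess was concentrated at the lengths that end at the foot of the anticodon loop. The 30 nt tag of the G form, which ends on the last base of the anticodon stem, was the most read tag of the 5′-half in every library, with 2596 reads in control, 1907 after 1 h, 1600 after 3 h and 13844 after 24 h. That was 180, 145, 111 and 952 RPM, and 5.28 times control at 24 h (5.06 to 5.51). The 31 nt tag, which ends on the first base of the loop, followed with 158, 115, 94.9 and 533 RPM, and 3.37 times control at 24 h (3.22 to 3.53). For both tags the 24 h library stood far above the other 3, and the 3 h library was the lowest.

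On either side of these ends the 24 h ratio was smaller among G form tags from nt 1 with at least 100 reads. Shorter by 1 base, the 29 nt tag of the G form had 96.9, 70.2, 59.1 and 237 RPM, or 2.45 times control at 24 h. The 28 nt tag had 50.3, 40.9, 32.5 and 103 RPM, or 2.04 times control. The 32 nt tag had 87.4, 91.6, 78.8 and 162 RPM, or 1.86 times control. The 33 nt tag was rare, with 205, 170, 183 and 508 reads, and stood at 2.45 times control.

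The 34 nt tag of the G form, which ends on the second base of the anticodon, was a separate local peak. It had 1339 reads in control, 1416 after 1 h, 1207 after 3 h and 2253 after 24 h, which is 93.0, 108, 84.0 and 155 RPM. Its 24 h level was 1.67 times control (1.56 to 1.78), well under that of the 30 nt tag. The proportion of both ends differed between libraries, with 1.94 reads of 30 nt for each of 34 nt in control, 1.35 after 1 h, 1.33 after 3 h and 6.14 after 24 h. Almost no read reached the end of the window, since the 35 nt tag of the G form had 8, 14, 17 and 29 reads (3.59 times control at 24 h, 1.60 to 9.09) and the 36 nt tag 0, 1, 1 and 6.

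Over all members, tags of 28 to 31 nt held 51.9% of the 5′-half reads in control, 46.5% after 1 h, 44.1% after 3 h and 71.9% after 24 h. Tags of 18 to 27 nt held 28.1%, 28.4%, 31.4% and 15.0%, and tags of 32 to 36 nt held 20.0%, 25.1%, 24.5% and 13.1%. By level, the 28 to 31 nt tags stood at 3.86 times control at 24 h (3.77 to 3.96), the shorter ones at 1.49 times (1.43 to 1.55) and the longer ones at 1.83 times (1.75 to 1.92). The 30 and 31 nt tags alone made up 68.4% of the 24 h excess in RPM. Tags of 30 nt or more made up 55.0%, 56.2%, 53.5% and 69.5% of the reads, and the mean length was 28.3, 28.5, 28.2 and 29.3 nt. Among tags of the G form alone, which hold most reads, the mean length was 29.9, 30.2, 30.04 and 30.04 nt, and the 24 h library was not the highest. At 1 h, the 32 to 36 nt tags were the only one of these bands above control (1.09 times, 1.04 to 1.15), and at 3 h all 3 bands were below it.

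**Figure D2:**
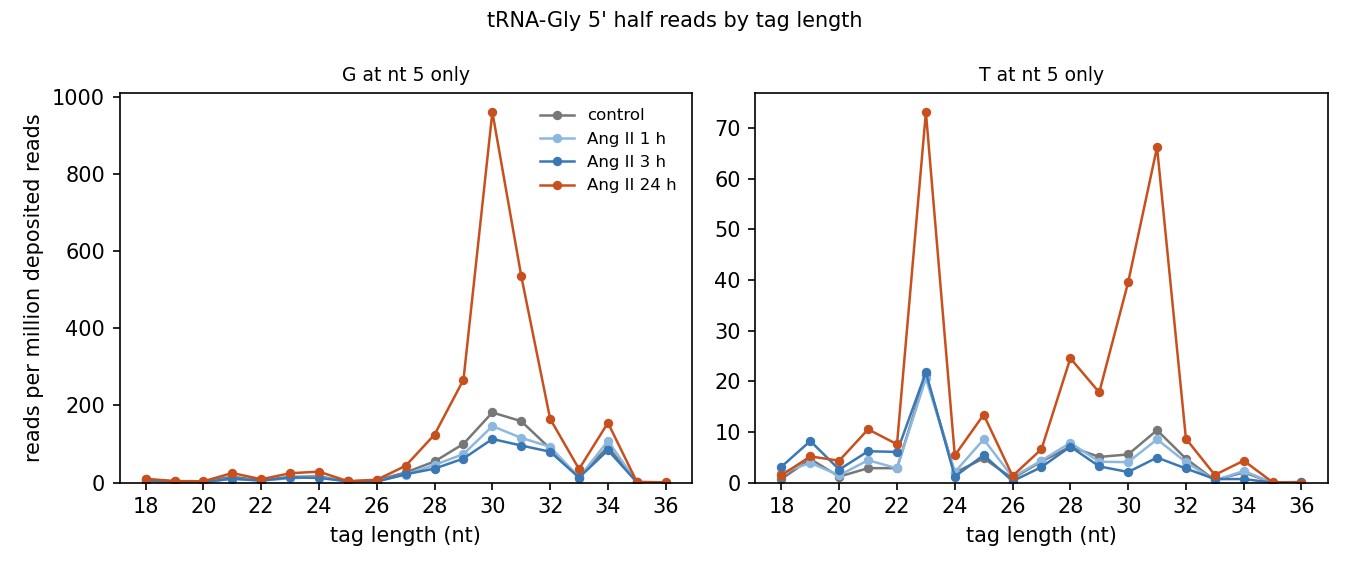
RPM (vertical axis) by tag length in nt (horizontal axis) for tags of the G form alone (left) and the T form alone (right), with 1 line per library and different vertical scales. The G form peaks at 30 and 31 nt with a smaller peak at 34 nt. The T form peaks at 23 nt and, most clearly after 24 h, at 31 nt. The 24 h library is highest at each of these lengths.

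By exact matches, the T form had another profile of lengths. Its most read length was 23 nt in each library, and the 23 nt tag shown above had 305 reads in control, 267 after 1 h, 310 after 3 h and 1061 after 24 h (21.2, 20.4, 21.6 and 73.0 RPM). That was 3.44 times control at 24 h (3.03 to 3.93), and the 3 other libraries lay close together. At 31 nt the tag from nt 1 had 138, 104, 60 and 932 reads, or 6.69 times control at 24 h (5.59 to 8.06). The 30 nt tag of the T form had 71, 47, 21 and 564 reads, or 7.87 times control (6.14 to 10.2). Over all starts, tags of the T form were more often of 31 nt than of 30 or 32 nt in every library. At 3 h they were still more often of 19, 21, 22, 23, 25 or 28 nt than of 31 nt. Over all starts these lengths had 118, 89, 87, 313, 78 and 102 reads, against 71 at 31 nt. The 30 and 31 nt ends are those at which the G form peaked, and there the 24 h ratio was higher for the T form than for the G form. Over all starts, 44.2% of exact T form reads at 24 h were of 18 to 27 nt, against 56.2% in control. The G form had 6.55% at 24 h and 12.6% in control. The profile depends on the matching. With up to 5 mismatches beside nt 5, in reads from nt 1, these shares were 24.0% and 32.5% for the T form. They were 7.35% and 12.6% for the G form. Counted so, 28 to 31 nt held 45.4%, 37.9%, 26.6% and 64.7% of T form reads in control, 1 h, 3 h and 24 h. At 3 h, 55.7% were of 18 to 27 nt.

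All other tags of the same lengths had the same direction at 28 to 31 nt, with smaller ratios at 24 h. These other tags include 5′-half reads that did not match exactly. Over all lengths, reads from nt 1 with 1 to 5 mismatches beside nt 5 stood at 393 RPM in control and 962 RPM at 24 h for the G form. For the T form they stood at 722 and 2459 RPM. All other tags of 28 to 31 nt stood at 18964 and 22881 RPM. The part of the mismatched reads in the ratios of the other tags was not tested. Over 28 to 31 nt, the 5′-half stood at 0.777, 0.622 and 3.86 times control at 1 h, 3 h and 24 h, and the other tags at 0.849, 0.725 and 1.21 times. At 30 nt, the 5′-half stood at 5.34 times control at 24 h (5.13 to 5.57), while all other tags of 30 nt stood at 1.26 times (1.25 to 1.27). At 29 nt, where the other tags were at their highest, the values were 2.66 and 1.47, at 31 nt 3.55 and 1.13, at 28 nt 2.38 and 1.06, and at 34 nt 1.68 and 0.935. The 5′-half made up 15.8% of all 30 nt reads at 24 h, against 4.25% in control. At 18, 19 and 20 nt the ratios lay near each other, with 1.15, 0.981 and 1.21 for the 5′-half and 0.966, 1.05 and 1.18 for all other tags. At 3 h, the 5′-half was at 0.616 times control at 30 nt and the other tags at 0.737 times, while at 32 nt the 5′-half was the higher, with 0.892 and 0.475.

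**Figure D3:**
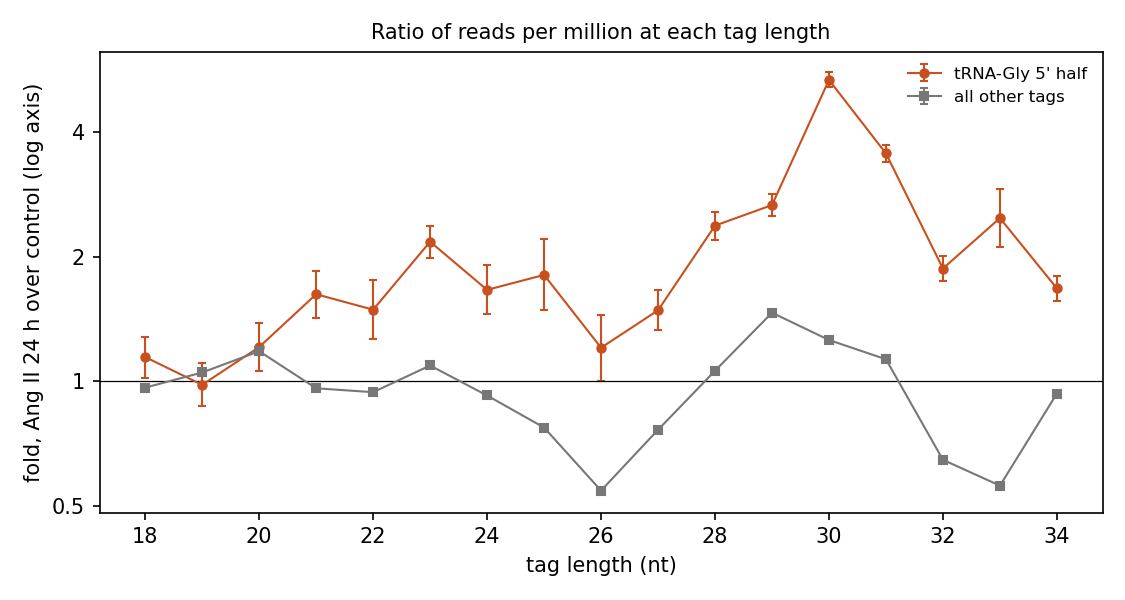
Ratio of RPM at 24 h of Ang II over control, on a log axis, by tag length in nt, for the 5′-half and for all other tags of that length, with exact 95% intervals (too narrow to see for the other tags). The 5′-half is highest at 30 nt (5.34) and near the other tags at 18 to 20 nt. The other tags include 5′-half reads with mismatches.

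Most reads began at the first base of the tRNA. Tags from nt 1 made up 82.8% of the 5′-half reads in control, 82.3% after 1 h, 82.4% after 3 h and 90.9% after 24 h, and their 24 h level was 3.06 times control (3.00 to 3.13). Starts at nt 2 to nt 5 were few, with 431, 399, 392 and 1628 reads, but stood at 3.74 times control at 24 h (3.36 to 4.17). At nt 3, the most used of these, there were 199, 171, 165 and 859 reads. Starts further in showed no such ratio, and the 3 most used of them, nt 8, nt 13 and nt 16, stood at 1.01, 1.16 and 1.02 times control at 24 h. Starts at nt 19 had 2 to 5 reads in each library.

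**Figure D4:**
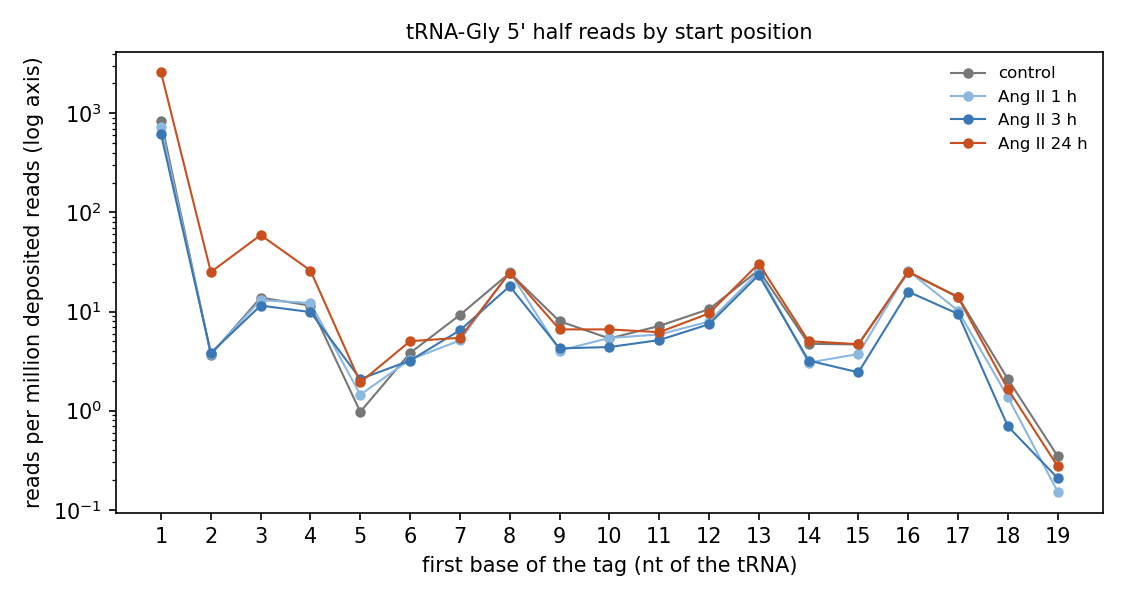
RPM (log axis) of 5′-half tags by the position of their first base in the tRNA, with 1 line per library. The 24 h library lies above the others at nt 1 to nt 4, and the 4 lines lie closer together from nt 8 on.

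Single tags were set against a rule of size, which calls a tag where log2((RPM + 1)/(RPM + 1)) passes 1.5-fold and the higher of both libraries has at least 100 reads. At 24 h, 24 of the 31 tags of the 5′-half that reached 100 reads were higher and 0 were lower, whereas among all 4939 tags 13.2% were higher and 23.5% lower. The median log2 ratio was 1.16 over those members and −0.20 over all tags. Of the 24, 15 were of the G form, 9 of the T form and 0 shared, 19 started at nt 1, and they were 21 to 34 nt long. The molecule was chosen with its 24 h level known, so this count describes the members and supports nothing.

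At 3 h, 8 of 20 tags were lower and 1 higher, beside 23.3% lower and 5.67% higher among all 4636 tags. At 1 h, 1 of 20 was lower and 1 higher, beside 17.1% lower and 4.79% higher among 4527. The median log2 ratio was −0.47 over the members and −0.18 over all tags at 3 h, and −0.22 and −0.16 at 1 h. With TMM factors, 1 tag of the 5′-half was lower at 3 h and 0 at 1 h. These factors raise log2 ratios by 0.23 at 3 h and 0.22 at 1 h. The share over all tags was not counted with them, so these smaller counts describe the members alone.

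The 3 tags with the largest log2 ratio at 24 h were a G form tag from nt 3 to nt 31 (2.80, with 221 reads at 24 h and 19 in control) and the 30 and 31 nt tags of the T form (2.75 and 2.62). At 3 h, among tags that reached 100 reads in either library, the largest negative ratios were those of the 31 nt tag of the T form (−1.03), the shared tag from nt 8 to nt 30 (−0.75, 68 reads at 3 h and 124 in control) and the 31 nt tag of the G form (−0.73). The 30 nt tag of the T form, with 21 reads at 3 h and 71 in control, was lower still (−1.27) but under that minimum. The tag above the limit at 3 h was the 19 nt tag of the T form (0.69, 112 reads at 3 h and 64 in control). At 1 h they were the 25 nt tag of the T form, which was higher (0.69, 105 reads at 1 h and 66 in control), and the 21 nt tag of the G form, which was lower (−0.62, 117 reads at 1 h and 205 in control).

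Of the remaining leading tags, those of the G form with 27, 24 and 22 nt had 344, 231 and 75 reads in control and stood at 1.60, 1.75 and 1.56 times control at 24 h. The most read tags of 18, 19, 20 and 26 nt were shared ones from inside the tRNA. They had 226, 140, 205 and 65 reads in control, and their 24 h ratios lay between 0.856 and 1.36. None of these shared tags passed the size rule at 24 h. Of all 243 tags, 103 had under 10 reads over the 4 libraries.

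The limits of 18 and 36 nt set the members, and tags just outside them are given as a description. Within the same 36 nt, tags of 17 nt had 31.3 RPM in control, 20.7 after 1 h, 24.2 after 3 h and 37.3 after 24 h, and those of 18 nt, just inside, had 39.6, 35.4, 33.7 and 45.3 RPM. Past the other limit, G form tags from nt 1 of 37 to 42 nt had 28, 16, 25 and 47 reads. No tag in the files is longer than 42 nt, so the whole tRNA could not be read as 1 tag.

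The T form was measured less well than the G form, because few of its reads matched the gene exactly. When reads from nt 1 were allowed up to 5 mismatches beside nt 5, the T form had 791 RPM in control, 693 after 1 h, 500 after 3 h and 2717 after 24 h, and the G form 1168, 940, 796 and 3290 RPM. Of the T form reads so counted, 91.2%, 89.8%, 86.3% and 90.5% carried at least 1 other mismatch, against 33.6%, 30.1%, 31.2% and 29.3% of the G form reads. The 24 h ratio was near that of exact matches, at 3.43 (3.36 to 3.51) for the T form and 2.82 (2.77 to 2.87) for the G form. Counted in this way, the T form stood below control at 1 h (0.876 times, 0.852 to 0.901) and at 3 h (0.632 times, 0.614 to 0.651), unlike its exact matches at either time.

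The other bases in T form reads were often the base that comes just before in the tRNA. Over the 4 libraries together, this was the leading other base at 19 of the 25 positions where it can be told, and it took a median of 3.73% and up to 35.1% of the reads at a position. In G form reads it led at 12 of 24 positions, with a median of 0.792% and a maximum of 5.47%. In miR-21-5p reads the median was 0.102% and the maximum 1.24%. At nt 29, nt 32 and nt 33, 45.3%, 35.9% and 39.9% of T form reads had another base, against 4.60%, 3.92% and 8.40% of G form reads. The T of the T form is itself the same base as nt 4. Whether the T form reads came from a gene copy, from another tRNA or from the reading of bases was not tested.

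**Figure D5:**
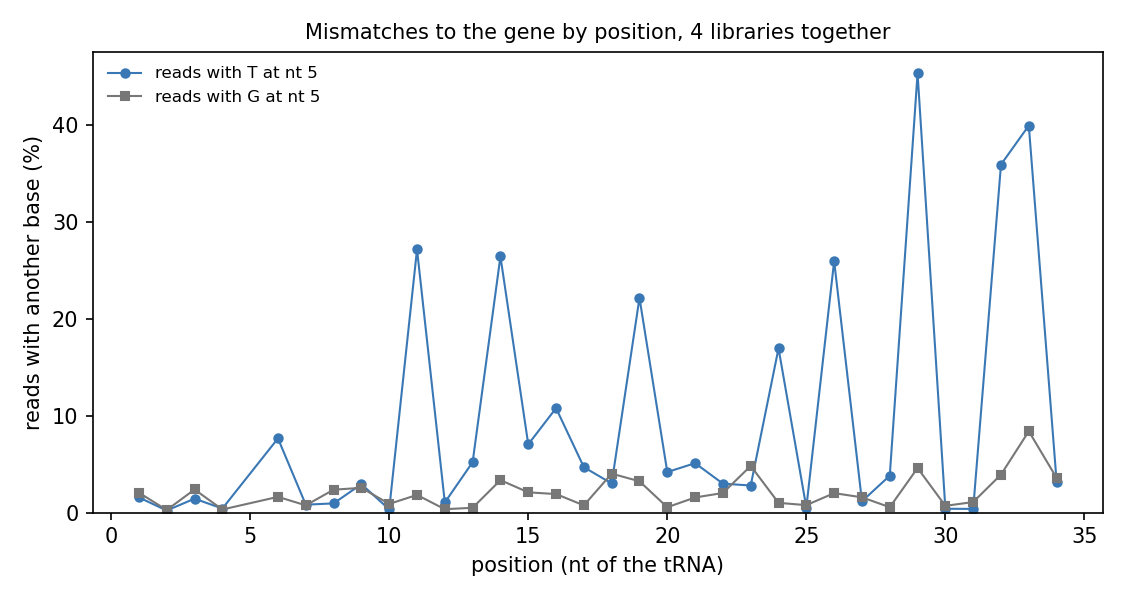
Percentage of reads with a base other than that of the gene, by position in nt, for reads from nt 1 with T or with G at nt 5 and up to 5 mismatches elsewhere, 4 libraries together. The line of the T form has separate peaks, the highest at nt 29 (45.3%), where that of the G form is at 4.60%.

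The 23 nt peak of the T form stood where the tRNA resembles the 3′ adapter of the library protocol. The first 12 bases of that adapter, in the labels' protocol, and nt 24 to nt 35 of the gene are these, shown because they match at 9 of 12 positions, and at 5 of the first 6.
3′ adapter, first 12 bases: atctcgtatgcc
tRNA gene, nt 24 to 35: ttctcgcctgcc

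After any other base from nt 18 to nt 36 the gene matched the adapter at no more than 6 of 12 positions. The substitution T24A removes the difference at the first of these bases. It was present in 18.2%, 18.5%, 11.2% and 15.5% of T form reads of at least 24 nt. In G form reads the shares were 0.541%, 0.558%, 0.313% and 0.329%. Its A is also the base just before, at nt 23, so T24A falls under the pattern of other bases given above. Over the 4 libraries together, the base just before took larger shares of T form reads at nt 11 (24.9%), nt 14 (20.3%), nt 19 (20.4%), nt 26 (25.5%), nt 29 (30.03%) and nt 32 (35.1%). Elsewhere its shares were smaller, and the median was 3.73%. Whether T24A is tied to the adapter was not tested. The sources used here do not say how reads were trimmed, and its part in the 23 nt peak was not tested.

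The anticodon separates tRNA-Gly-GCC from other glycine tRNAs that may begin alike, and tags of 32 nt or less do not reach it. In reads that match the G form from nt 1 to nt 32 and reach nt 33, the gene's base was read there in 93.3%, 93.0%, 94.4% and 95.8% of reads, and the most frequent other base was that of G33T, in 5.04%, 5.32%, 3.55% and 2.61%. In such reads of the T form, it was read in 66.2%, 53.5%, 61.1% and 61.4%, and G33C, the base of a CCC anticodon, in 26.2%, 24.4%, 22.2% and 30.4%. These shares of the T form rest on few reads, with G33C in 17, 21, 8 and 48.

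Fragments from the other end of the tRNA were much rarer. Tags that end in the bases that pair with nt 1 to nt 7, the next base and the added CCA had 906 reads in control, 896 after 1 h, 771 after 3 h and 1275 after 24 h. The 24 h level was 1.39 times control (1.28 to 1.52). For each of them there were 13.4 reads from nt 1 in control, 10.6 after 1 h, 11.4 after 3 h and 29.4 after 24 h. Ends that pair with the T form made up 58.6%, 58.6%, 59.1% and 51.4% of these reads. That is a larger share than the T form had among exact 5′ tags, but the 3′ tags were matched by their end alone. In 5′ reads from nt 1 with up to 5 mismatches beside nt 5, the T form's share was nearer, at 39.95%, 41.9%, 38.0% and 45.0%. The 3′ ends that pair with the T form stood at 1.22 times control at 24 h (1.09 to 1.37) and those that pair with the G form at 1.64 times (1.44 to 1.87).

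The leading 3′ tags carried a substitution, A56T, at an A of the T loop, a base that in many tRNAs is methylated and is then misread by reverse transcriptase. Each is shown with the same tag as the pairing with nt 1 to nt 7 gives it, and the substituted base is in capitals.
pairs with the G form, A56T: tcgTttcccggcccatgcacca
pairs with the G form: tcgattcccggcccatgcacca
pairs with the T form, A56T: tcgTttcccggccaatgcacca
pairs with the T form: tcgattcccggccaatgcacca

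The first of these had 254 reads in control, 272 after 1 h, 234 after 3 h and 451 after 24 h, and its counterpart without the substitution 42, 27, 24 and 41. The third had 376, 376, 331 and 470 reads, and its counterpart 56, 36, 43 and 64. The substituted tag was the more read one of each pair in every library.

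The RefSeq tables gave the sequence of 2 other tRNA genes, and both had far fewer reads than tRNA-Gly-GCC. The 5′-half of Trnac-gca15, a cysteine tRNA gene, had 114, 81, 62 and 90 reads, or 0.782 times control at 24 h (0.586 to 1.04). That of Trnat-agu1, a threonine tRNA gene, had 6, 12, 14 and 12 reads, or 1.98 times control at 24 h (0.688 to 6.43). The wide interval of Trnat-agu1 holds the 2.79 of tRNA-Gly-GCC, so its few reads cannot tell their 24 h ratios apart.

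Among 173 miRNAs with 100 reads in a library, 1 had a higher log2 ratio at 24 h than the 5′-half. This was miR-129-3p of both its genes (1.61, with 104 reads at 24 h and 24 in control), and it was named after its value was seen. Over the 173, the median log2 ratio was −0.09 after 1 h, −0.05 after 3 h and −0.25 after 24 h. By RPM, 10 of them were below 0 at 1 h and 3 h and above 0 at 24 h, the order of the 5′-half. The sign of the 5′-half at 1 h depended on scaling, and the 10 were not counted again under other scalings. The 3 miRNAs whose course was nearest, by the largest of the 3 differences in log2 ratio, were miR-664-3p, miR-384-3p and miR-182, at 0.64, 0.70 and 0.79. Their 24 h log2 ratios of 0.84, 0.77 and 0.84 were all under the 1.48 of the 5′-half, so none had its course closely.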

How the data were processed

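Libraries were made from 0.5 µg of total RNA with 12 PCR cycles, size-selected (17 to 52 nt) and sequenced on the Genome Analyzer IIx, as the labels' protocols say. The authors deposited 1 file per library with whole-number counts of each distinct sequence, with no header and no normalization. Novoalign and rn4 are named in the submitters' processing notes, without a role. Trimming and filtering are not given in the sources used here. A row that names no sequence (7.07%, 5.66%, 5.13% and 6.36% of the counts in control, 1 h, 3 h and 24 h) was left out.

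The tRNA gene was cut from the RefSeq promoter window that holds it (GRCr8), and its direction was set by its acceptor stem, T loop and anticodon loop. Tags were matched exactly to the first 36 nt of either form, each counted once. The molecule, its forms and all lists were chosen with earlier results of these data known. The tags named were up to 12 most read, the most read of each length, and the 3 largest log2 ratios past the size rule in each direction and time. The 3 miRNAs of nearest course were taken by the largest difference in log2 ratio. A miRNA was counted by the first 18 nt of its RefSeq sequence.

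No test of conditions was possible with 1 library per group. Levels have exact Poisson, shares exact Clopper-Pearson and ratios exact conditional binomial intervals, at 95%. Mismatches were counted in reads from nt 1 with up to 5 beside nt 5. The matching of tags and the size rule were checked on simulated data. Alternatives were other scalings (TMM in edgeR 4.0.16 with R 4.3.3, median of ratios, miRNA reads, other reads), other lengths, windows, mismatches, limits and pseudocounts. The alternative with up to 5 mismatches was chosen after seeing the data. Python 3.11.15, numpy 2.4.6, scipy 1.17.1 and matplotlib 3.10.9 were used.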

Additional observations from a re-analysis of the deposited data

Results flagged for a closer look

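The log2 ratio to control of all 5′-half tags was opposite in sign between times, at −0.20 at 1 h and −0.45 at 3 h against 1.48 at 24 h. The same held for tags of the G form alone, at −0.23 at 1 h and −0.49 at 3 h against 1.60 at 24 h. For all 5′-half tags the sign at 1 h depended on scaling, with 0.011 under TMM factors and 0.0092 when scaled to reads other than miRNA. The difference between times was not tested, since each time is 1 library, and the ratios share the control library.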

How the results depend on the processing

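The level at 24 h was above control under all alternatives run and that at 3 h below it, while at 1 h the sign depended on scaling. The log2 ratios at 1 h, 3 h and 24 h were 0.011, −0.22 and 1.68 with TMM factors, −0.079, −0.30 and 1.68 with median-of-ratios factors, −0.29, −0.57 and 1.41 scaled to miRNA reads, and 0.0092, −0.15 and 1.65 scaled to all other reads. These factors shift every log2 ratio by 0.22, 0.23 and 0.21 (TMM), 0.13, 0.15 and 0.20 (median of ratios), −0.09, −0.12 and −0.07 (miRNA reads) and 0.21, 0.30 and 0.17 (other reads), and the shift is the cause of the difference. Among ratios that moved past their counting interval, that at 1 h was −0.24 with 1 mismatch allowed and −0.26 from nt 1 with up to 5 mismatches. That at 3 h was −0.49 for tags of 30 nt or more, −0.51 over the whole gene, −0.49 for the G form and −0.60 with up to 5 mismatches. That at 24 h was 1.43 from 16 nt, 1.82 from 30 nt, 1.23 over the whole gene, 1.61 from nt 1, 1.60 for the G form and 1.62 with up to 5 mismatches. The cause of these moves beyond the tags they add or leave out was not tested.

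The share of reads from tags of 30 nt or more was highest at 24 h in each alternative. In control, 1 h, 3 h and 24 h it was 67.8%, 70.7%, 68.9% and 77.2% for the G form, 65.6%, 67.5%, 63.7% and 75.7% from nt 1, 44.2%, 45.8%, 44.4% and 63.1% over the whole gene, and 64.3%, 66.1%, 56.8% and 74.8% with up to 5 mismatches. With 1 mismatch allowed it was 51.8% at 3 h.

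The counts of called tags below are of 5′-half tags alone. The share over all tags was counted for the main rule only, so the counts under other settings cannot be set against it. At 24 h the tags called higher numbered 24, and 39 with a minimum of 20 reads and 7 with 1000. Those called lower at 24 h numbered 0, and 2 with 20 reads. At 3 h those called lower numbered 8, and 1 at 2-fold, 14 with 20 reads, 3 with 1000, 1 with TMM and 2 with median-of-ratios factors, and those called higher numbered 1, and 0 at 2-fold, 5 with 20 reads and 0 with 1000. At 1 h those called higher numbered 1, and 0 at 2-fold, 3 with 20 reads and 0 with 1000, and those called lower 1, and 0 at 2-fold, 5 with 20 reads, 0 with 1000 and 0 with TMM or median-of-ratios factors.

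Each group is 1 library, so none was left out in turn, and depth limits the T form, the 3′ ends and tags of 35 nt or more. No paired analysis was possible because each group is 1 library.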
